A study of Mus musculus with 6 samples.

Results

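The genes described here are 52 components of the mitotic machinery, a set that runs from the kinases and cyclins of mitotic entry through kinesins, kinetochore and condensin subunits to the proteins of cytokinesis. They were chosen by name, with earlier results of these data known, and their symbols were looked up in the deposited count table of mouse macrophages. All 52 were among the 52459 symbols of that table. All 52 also passed the filter on low counts, with at least 20 counts in every library, the lowest being Cenpk in a piceatannol library. The cells were bone marrow derived macrophages of C57BL/6 mice, cultured with the growth factor GM-CSF. Piceatannol, a plant stilbene known as an inhibitor of the tyrosine kinase Syk, was given overnight from day 7 of culture to 3 samples, and 3 control samples had the vehicle. Neither the dose nor the kind of vehicle is given in the sources used here. Nothing in the labels ties the samples of a group to separate mice or dishes, so a p-value reflects only how far these samples scatter, and that scatter may be technical.

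A dividing cell condenses its chromosomes, builds a bipolar spindle, attaches each chromosome to it through a kinetochore, and separates the sister chromatids once the spindle checkpoint is satisfied. Most of the genes for these steps are transcribed late in the cell cycle, in G2 and mitosis, and are held low in resting cells by the DREAM complex, which acts through promoter elements called cell cycle genes homology regions (CHR). GM-CSF and the related factor M-CSF drive division of macrophage precursors in culture, and mature macrophages divide little.

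The piceatannol libraries held 33276569 to 49283203 counts and the control libraries 43586270 to 58697084. Of the 15380 genes tested, 77% differed between the groups at an adjusted p below 0.05, so sizes are given beside the calls. Mitochondrially encoded genes took 1.87% to 2.65% of the counts in piceatannol libraries and 0.777% to 0.866% in control libraries. The macrophage genes Adgre1, Csf1r, Itgam and Lyz2 were abundant in all 6 libraries, and cell type markers stand below.

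Piceatannol-treated macrophages held less RNA of almost the whole mitotic set. Of the 52 genes, 50 fell and 2 rose, with 38.3% of all tested genes lower and 38.8% higher by the same rule (edgeR's quasi-likelihood test, Benjamini-Hochberg adjustment over all 15380 genes). The largest adjusted p among the 52 was 0.00339, for Pttg1 (edgeR). At least 2-fold lower in piceatannol were 46 of the 52, against 16.6% of all tested genes. Their median log2 fold change was -2.02, while that of all tested genes was 0.01, and 6.19% of tested genes lay below the median of the 52.

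The values of single libraries show the same split. For 50 genes every piceatannol library was below every control library, which held for 39.2% of all tested genes. For the other 2, Cenpa and Pttg1, every piceatannol library was above every control library, which held for 39.9% of tested genes. Summed over the 52 genes, read counts scaled to library size (CPM) were 885, 678 and 867 in the piceatannol libraries, and 2536, 2509 and 2312 in the control libraries. The groups did not overlap, and the means were 810 ± 115 and 2452 ± 122 CPM (SD, n = 3 each), a control level 3.03 times that in piceatannol. An exact two-sided permutation test of the sums gave p = 0.1, the smallest value that 3 samples against 3 can give. In bulk RNA, fewer dividing cells and less of these RNAs per cell cannot be told apart.

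**Figure D1:**
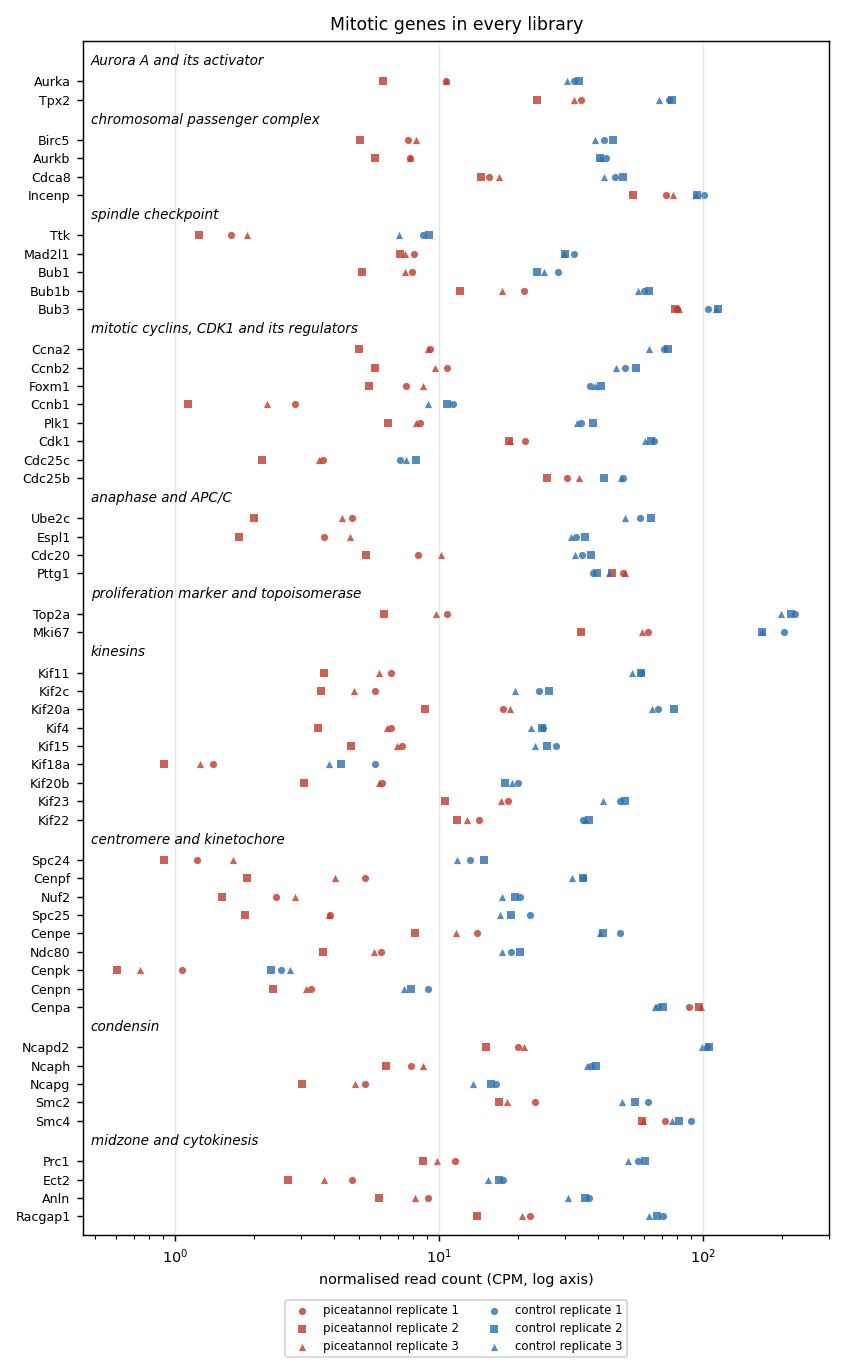
Normalised read count of each of the 52 mitotic genes in every library, on a log axis in CPM, grouped by role. Red points (piceatannol) lie left of blue points (control) for 50 genes, and right of them for Pttg1 and Cenpa. Red squares, piceatannol replicate 2, are the leftmost red points for 51 genes.

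Within the treated group the 52 genes moved together. Piceatannol replicate 2 had the lowest value of its group for 51 of 52 genes, with Cenpa as the exception, while it was the lowest for 36.7% of all tested genes. Its median deviation from the group mean over the 52 genes was -0.41 on the log2 scale, against -0.01 over all tested genes. Piceatannol replicate 1 was the highest for 35 genes and piceatannol replicate 3 for 17. Control replicate 3 was the lowest control for 41 genes, with a median deviation of -0.10. With piceatannol replicate 2 left out, all 52 genes were still called and their median was -1.87.

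Top2a, which encodes topoisomerase II alpha, the enzyme that untangles sister DNA before segregation, had the largest change of the set. Its gene lies on chromosome 11 at 98992943 to 99024189, minus strand, in GRCm38. Its level was 10.8, 6.20 and 9.77 CPM in piceatannol libraries, and 224, 217 and 198 CPM in control libraries. Every treated library was far below every control. The fall was 4.56 ± 0.19 (SE) on the log2 scale, or 23.6-fold, with an adjusted p of 5.3e-07 (edgeR).

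The promoter of Top2a and that of Ccnb2 are shown here because these genes had the largest fall and the highest control level per length of the 52. That of Cenpa is shown as the contrast, a gene that rose, as 30-base stretches around its matches, since its window overlaps annotated exons. The stretches come from RefSeq's promoter table on GRCm38.p6 and lie in the 250 bases before the table's start site. They run 5′ to 3′ along the gene, and capitals mark the CHR letters TTTGAA or TTTAAA and the CCAAT box, each on either strand. The first is Top2a at chr11:99024190-99024439 (minus strand), then Ccnb2 at chr9:70421555-70421804 (minus strand). The last 2 are from Cenpa at chr5:30666777-30666806 and chr5:30666856-30666885 (plus strand).
Top2a: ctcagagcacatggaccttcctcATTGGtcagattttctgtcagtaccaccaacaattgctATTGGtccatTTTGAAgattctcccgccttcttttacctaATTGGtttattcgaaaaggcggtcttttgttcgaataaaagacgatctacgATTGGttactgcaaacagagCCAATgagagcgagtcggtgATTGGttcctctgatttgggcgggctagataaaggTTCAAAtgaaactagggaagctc
Ccnb2: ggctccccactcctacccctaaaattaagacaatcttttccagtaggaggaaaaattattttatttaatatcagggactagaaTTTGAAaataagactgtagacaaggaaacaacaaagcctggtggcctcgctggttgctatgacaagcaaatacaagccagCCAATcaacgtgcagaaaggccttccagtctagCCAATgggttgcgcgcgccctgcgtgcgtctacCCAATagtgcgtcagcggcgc
Cenpa, upstream stretch: ATTGGcttcagacctttattctcATTGGtt
Cenpa, stretch near the start: cacaaagttgggaTTTAAAagatgcggtgg

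The Top2a window held 6 CCAAT matches and 2 CHR matches, the nearer CHR match 23 bases before the start. That of Ccnb2 held 3 CCAAT matches, at 87, 54 and 21 bases before the start, and 1 CHR match at 167 bases. Cenpa, though it rose, had matches to both elements as well, with CCAAT at 109 and 86 bases and TTTAAA at 17 bases before the table's start. That start lies 109 bases inside the annotated gene, so both printed Cenpa stretches lie in annotated exon bases, not before the annotated start. The window listed for Pttg1 starts 270 bases inside the annotated gene and held no match.

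Of the 52 genes, 43 were in the promoter table, with 48 windows. Spc24, Cdc25c, Smc4, Ccna2, Kif20a, Incenp, Aurkb, Foxm1 and Tpx2 were not matched. A CHR match stood in 52.1% of the 48 windows, against 17.99% of the 13910 windows of tested genes and 25.2% of all 32851 windows in the table. A CCAAT box stood in 77.1% of the mitotic windows, against 34.9% of windows of tested genes and 33.8% of all windows. Both elements were in 45.8%, against 6.47% and 8.78% of the same windows. The E2F letters TTTCCCGC or TTTGGCGC, searched on both strands and sharing no full match with the other motifs, were in 6.25% of the mitotic windows, against 2.26% and 1.30%. The table's start lay within 50 bases of the annotated gene start for 35 of the 48 windows. For 7 it lay over 250 bases inside the gene, so these windows, though counted above, held no bases before the annotated start. With the 50 bases after the start added, a window length chosen after seeing the data, CHR matches stood in 79.2% of the mitotic windows and 19.7% of those of tested genes.

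Over the 43 genes with a window, changes with and without a CHR match are given as a description, and their difference was not tested. With the 250 bases before the start, the 23 genes with a match had a median log2 fold change of -2.19 and the 20 without one -1.89. With the longer window, the 35 genes with a match had a median log2 fold change of -2.11 and the 8 without one -1.92. The lowest value was -4.56 with a match and -3.03 without, and the highest 0.47 and 0.25. These letters are a description of sequence, and binding was not measured.

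Mki67, the gene of the Ki-67 protein that coats mitotic chromosomes and serves as a marker of cycling cells, changed less than Top2a. Its level was 61.8, 34.6 and 58.7 CPM in piceatannol libraries, and 203, 168 and 168 CPM in control libraries. The lowest control was still more than 2-fold above the highest treated library. The fall was 1.79 ± 0.26 (SE) on the log2 scale, with an adjusted p of 0.00251 (edgeR). In deposited FPKM, which scale each gene to its length, Top2a over Mki67 was 0.194 ± 0.007 in piceatannol and 1.33 ± 0.10 in control libraries (SD, n = 3 each). This ratio and those below were chosen after the values were seen and are given with no test. Without Top2a and Mki67, the control sum of the other 50 genes was 2.75 times the piceatannol sum.

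The kinases and cyclins that start mitosis all fell. Ccna2 encodes cyclin A2, the partner of CDK1 and CDK2 in S and G2 phases, and had 9.26, 4.99 and 9.09 CPM in piceatannol libraries, and 71.2, 73.6 and 62.3 CPM in control libraries. The fall was 3.12 ± 0.22 (SE) on the log2 scale, with no overlap (adjusted p = 2.19e-05, edgeR). Ccnb2, one of the B cyclins that activate CDK1 at mitotic entry, had 10.7, 5.72 and 9.65 CPM in piceatannol libraries, and 50.9, 55.9 and 46.9 CPM in control libraries. Ccnb1, the other B cyclin, had 2.85, 1.12 and 2.23 CPM in piceatannol libraries, and 11.3, 10.8 and 9.10 CPM in control libraries. The B cyclins fell by similar amounts, 2.54 ± 0.21 for Ccnb2 and 2.29 ± 0.23 for Ccnb1 (SE, log2). Their FPKM ratio, Ccnb1 over Ccnb2, was 0.083 ± 0.013 in piceatannol and 0.074 ± 0.006 in control libraries (SD, n = 3 each), ranges that overlap.

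Cdk1, the kinase these cyclins activate, had 21.2, 18.5 and 18.7 CPM in piceatannol libraries, and 65.1, 63.8 and 60.4 CPM in control libraries. Its fall of 1.70 ± 0.07 (SE, log2) was smaller than those of its cyclins. Plk1, the Polo-like kinase of mitotic entry and spindle assembly, was 4.57-fold lower, and Foxm1, the forkhead factor that activates G2 and mitotic genes, was 5.36-fold lower. The CDK1-activating phosphatases changed less: Cdc25c was 2.41-fold lower and Cdc25b 1.56-fold lower. For Cdc25b the libraries gave 30.7, 25.6 and 34.1 CPM with piceatannol, and 50.04, 42.3 and 48.8 CPM in control. All 8 genes of this group fell, their median change being -2.24 (log2).

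Aurka, the Aurora A kinase of centrosomes and spindle poles, had 10.6, 6.14 and 10.6 CPM in piceatannol libraries, and 32.6, 34.0 and 30.6 CPM in control libraries. It was 3.50-fold lower (adjusted p = 1.45e-05, edgeR). Tpx2, the spindle protein that activates Aurora A, was 2.40-fold lower, at 30.3 ± 5.85 CPM in piceatannol and 73.0 ± 4.24 CPM in control libraries (SD, n = 3 each).

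The chromosomal passenger complex, which corrects faulty attachments and later acts at the spindle midzone, did not change evenly. Its kinase gene Aurkb had 7.79, 5.72 and 7.76 CPM in piceatannol libraries, and 43.1, 40.7 and 41.2 CPM in control libraries. Birc5, which encodes survivin, a targeting subunit, had 7.62, 5.05 and 8.17 CPM in piceatannol libraries, and 42.4, 45.7 and 39.2 CPM in control libraries. Incenp, the scaffold subunit, had 72.5, 54.4 and 77.0 CPM in piceatannol libraries, and 101, 95.3 and 94.3 CPM in control libraries. None of these groups overlapped, but the falls on the log2 scale were 2.54 ± 0.10 for Aurkb, 2.59 ± 0.14 for Birc5 and 0.51 ± 0.11 for Incenp (SE). Cdca8, which encodes borealin, was between them at 1.56 ± 0.08. Aurkb over Incenp in FPKM was 0.114 ± 0.004 in piceatannol and 0.471 ± 0.006 in control libraries (SD, n = 3 each).

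**Figure D2:**
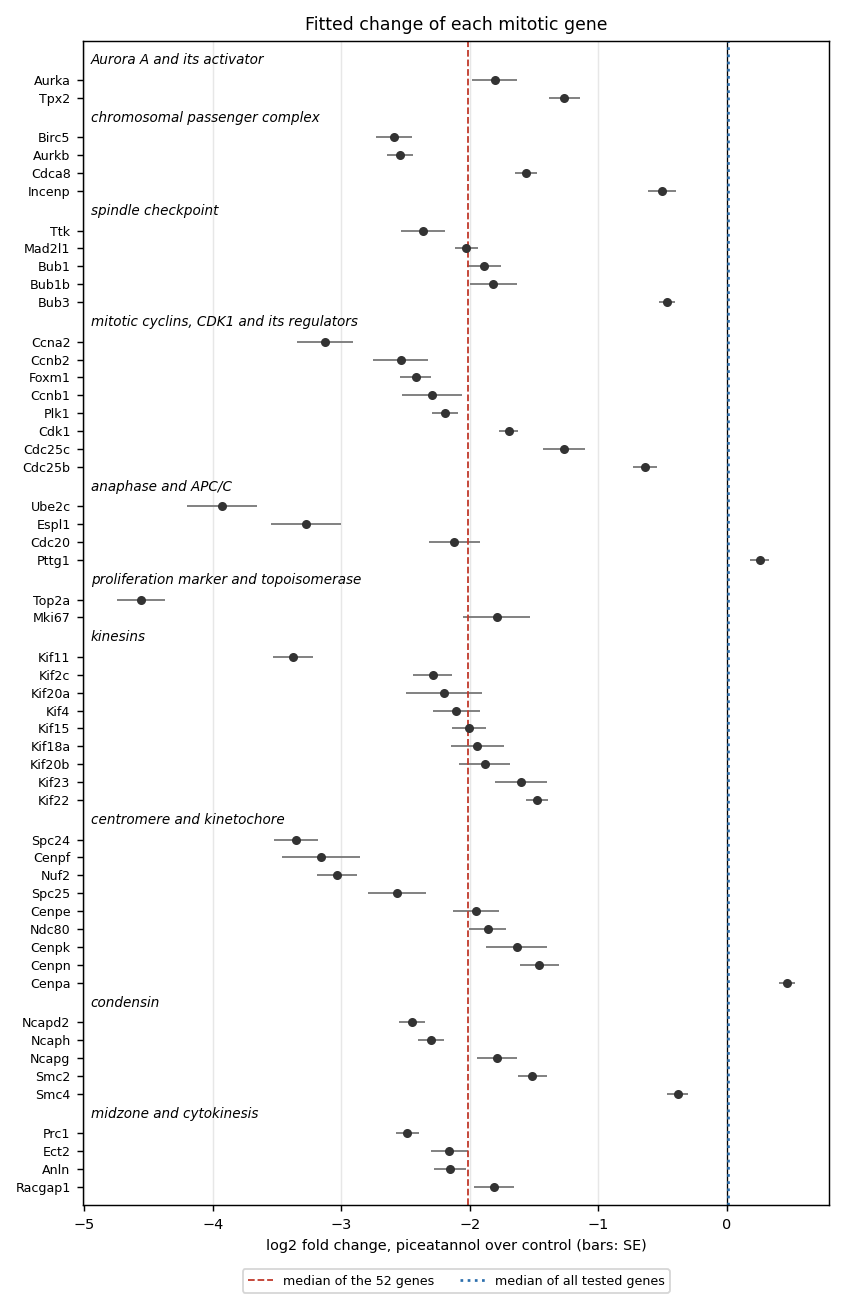
Fitted log2 fold change of piceatannol over control for each of the 52 genes, with standard errors as bars, ordered by size within each role. The dashed line is the median of the 52 genes, -2.02, and the dotted line that of all tested genes, 0.01. Pttg1 and Cenpa lie above 0, and Smc4, Bub3, Incenp and Cdc25b between -1 and 0.

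The spindle checkpoint holds back anaphase until all kinetochores are attached, and all 5 of its genes here fell. Mad2l1, whose product MAD2 captures the activator CDC20, had 8.03, 7.14 and 7.45 CPM in piceatannol libraries, and 32.6, 30.1 and 29.7 CPM in control libraries. Ttk, the MPS1 kinase that starts checkpoint signalling, was 5.15-fold lower, and the kinases Bub1 and Bub1b were 3.71-fold and 3.52-fold lower. Bub3, the adaptor that brings these proteins to kinetochores, had 79.8, 78.8 and 81.1 CPM in piceatannol libraries, and 105, 114 and 113 CPM in control libraries. The groups of Bub3 did not overlap, and it was 1.38-fold lower (adjusted p = 5.92e-07, edgeR). Bub1 over Bub3 in FPKM was 0.138 ± 0.030 in piceatannol and 0.376 ± 0.052 in control libraries (SD, n = 3 each).

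At the kinetochore, the 4 subunits of the NDC80 complex, which binds microtubule ends, fell by unequal amounts. Nuf2 had 2.42, 1.51 and 2.87 CPM in piceatannol libraries, and 20.3, 19.5 and 17.3 CPM in control libraries. Its direct partner Ndc80 had 6.03, 3.63 and 5.69 CPM in piceatannol libraries, and 18.8, 20.3 and 17.4 CPM in control libraries. Nuf2 was 8.19-fold lower and Ndc80 3.63-fold lower, and in FPKM Nuf2 over Ndc80 was 0.154 ± 0.017 in piceatannol and 0.351 ± 0.023 in control libraries (SD, n = 3 each). Spc24 and Spc25, which anchor the complex to the kinetochore, were 10.2-fold and 5.92-fold lower. Spc24 had 162 counts over the 3 piceatannol libraries and 2040 over the 3 control libraries.

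Other kinetochore members fell too. Cenpf, a large protein of the outer kinetochore, was 8.93-fold lower, with 5.25, 1.88 and 4.05 CPM in piceatannol libraries and 35.1, 35.2 and 32.02 CPM in control libraries. Cenpe, a kinesin-like motor that moves chromosomes to the spindle equator, was 3.87-fold lower. Cenpk and Cenpn, of the inner network that sits on centromeric chromatin, were 3.11-fold and 2.75-fold lower. Cenpk was the thinnest of the set, with 101 counts over the piceatannol libraries and 396 over the control libraries.

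Cenpa went the other way. It encodes the histone H3 variant that marks centromeres, and lies on chromosome 5 at 30666777 to 30674830, plus strand. Its level was 88.4, 96.8 and 98.1 CPM in piceatannol libraries, and 67.8, 70.7 and 65.9 CPM in control libraries. Every treated library was above every control, and piceatannol replicate 2, the lowest for the 51 other genes, was not the lowest here. The rise was 0.47 ± 0.06 (SE) on the log2 scale, with an adjusted p of 1.01e-06 (edgeR). Hjurp, the chaperone that loads this histone, fell by 0.27 on the log2 scale (adjusted p = 0.000715, edgeR) and was named after its values were seen. Cenpa over Hjurp in FPKM was 1.51 ± 0.16 in piceatannol and 0.896 ± 0.043 in control libraries (SD, n = 3 each).

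The anaphase genes held both the second largest fall and the second rise. Ube2c, the ubiquitin-conjugating enzyme of the anaphase-promoting complex (APC/C), had 4.70, 1.997 and 4.30 CPM in piceatannol libraries, and 58.0, 63.6 and 50.7 CPM in control libraries. It was 15.2-fold lower (adjusted p = 4.18e-05, edgeR). Espl1, which encodes separase, the protease that cuts cohesin, had 3.68, 1.76 and 4.63 CPM in piceatannol libraries, and 33.0, 35.8 and 31.6 CPM in control libraries. Cdc20, the activator of APC/C at the start of anaphase, was 4.35-fold lower, at 7.95 ± 2.45 CPM in piceatannol and 35.2 ± 2.41 CPM in control libraries (SD, n = 3 each).

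Pttg1 encodes securin, which holds separase inactive until APC/C destroys it. It had 49.7, 45.2 and 50.9 CPM in piceatannol libraries, and 38.4, 39.8 and 44.1 CPM in control libraries. The groups came close, since the lowest treated library was 45.2 CPM and the highest control 44.1 CPM, but did not overlap. The rise was 0.25 ± 0.07 (SE, log2), or 1.19-fold, with an adjusted p of 0.00339 (edgeR). The separase gene Espl1 was 9.66-fold lower in the same libraries.

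All 9 kinesins of the set, motors that move along or dismantle microtubules, were at least 2-fold lower. Kif11, the motor that pushes spindle poles apart, had 6.60, 3.69 and 5.92 CPM in piceatannol libraries, and 58.6, 58.2 and 54.1 CPM in control libraries. It was 10.4-fold lower (adjusted p = 8.75e-09, edgeR), while Kif15, which can take over its work, was 4.02-fold lower. Kif2c, a microtubule depolymerase at centromeres, was 4.88-fold lower, and the chromosome-bound motors Kif4 and Kif22 were 4.30-fold and 2.78-fold lower. Kif18a, which damps chromosome movements, was 3.84-fold lower, on 150 counts over the piceatannol libraries and 718 over the control libraries. The cytokinesis motors Kif20a, Kif20b and Kif23 were 4.61-fold, 3.69-fold and 3.04-fold lower. Kif20a was the most scattered of them, at 17.5, 8.87 and 18.6 CPM in piceatannol libraries and 67.7, 77.7 and 64.3 CPM in control libraries.

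Condensin folds mitotic chromosomes, and its ATPase pair and its other subunits differed. Smc2 had 23.1, 16.9 and 18.2 CPM in piceatannol libraries, and 61.8, 55.3 and 49.3 CPM in control libraries. Its partner Smc4 had 72.1, 58.8 and 59.5 CPM in piceatannol libraries, and 90.3, 81.3 and 76.5 CPM in control libraries. The groups of each gene did not overlap. Smc2 was 2.85-fold lower and Smc4 1.30-fold lower, although the proteins work as a pair, and Smc2 over Smc4 in FPKM was 0.290 ± 0.016 in piceatannol and 0.637 ± 0.021 in control libraries (SD, n = 3 each). The condensin I subunits Ncapd2, Ncaph and Ncapg were 5.47-fold, 4.93-fold and 3.45-fold lower. Ncaph2, the condensin II counterpart of Ncaph, was 1.18-fold lower (adjusted p = 0.00218, edgeR).

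**Figure D3:**
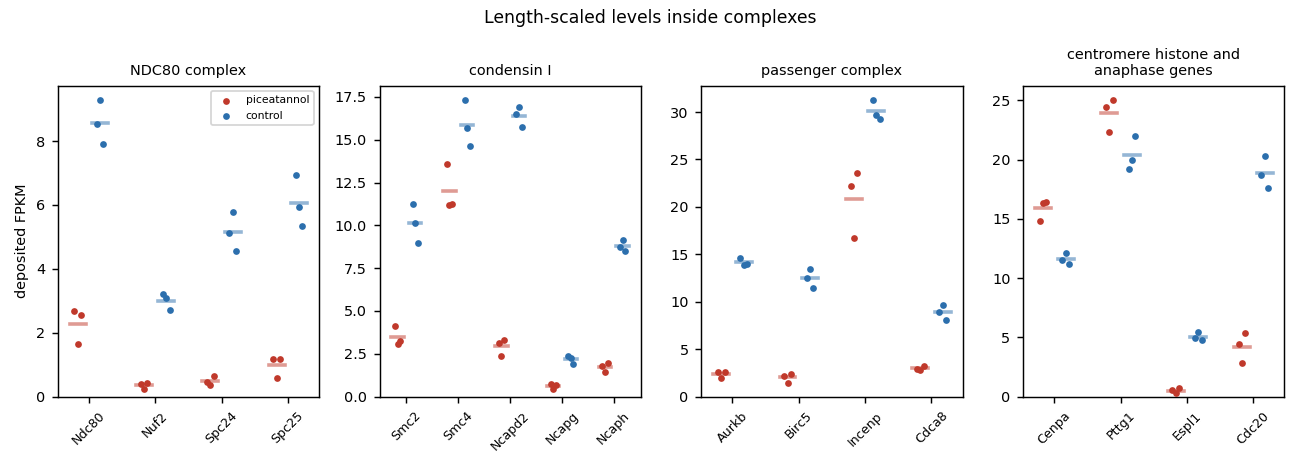
Deposited FPKM of genes within the NDC80 complex, condensin, the passenger complex, and the centromere histone with anaphase genes. Points are libraries, red for piceatannol and blue for control, and bars are group means. Smc4 and Incenp were 1.30-fold and 1.42-fold lower, Smc2 and Aurkb 2.85-fold and 5.83-fold lower, and Cenpa and Pttg1 higher.

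The genes of the spindle midzone and cytokinesis all fell. Prc1, which bundles antiparallel microtubules between the separating chromosomes, had 11.5, 8.75 and 9.81 CPM in piceatannol libraries, and 56.6, 60.4 and 52.2 CPM in control libraries. Ect2, the exchange factor that activates RhoA at the cleavage site, was 4.47-fold lower, and Anln, the ring scaffold anillin, was 4.45-fold lower. Racgap1, which joins with the kinesin Kif23 in centralspindlin, had 22.2, 13.95 and 20.7 CPM in piceatannol libraries, and 71.0, 67.3 and 62.6 CPM in control libraries. Racgap1 and Kif23, partners in a complex, fell by 1.81 ± 0.15 and 1.60 ± 0.20 on the log2 scale (SE).

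By role, summed CPM fell most for the pair Mki67 and Top2a, whose control sum was 6.48 times that in piceatannol. The ratio was 4.33 for the midzone and cytokinesis genes, 4.29 for kinesins and 3.75 for cyclins, CDK1 and its regulators. It was 2.68 for Aurka with Tpx2, 2.63 for the anaphase genes, 2.59 for condensin and 2.33 for the passenger complex. The spindle checkpoint genes gave 2.08 and the kinetochore genes 1.82, sums in which Bub3 and Cenpa weigh heavily. Pttg1, Incenp and Smc4 weigh likewise in the anaphase, passenger and condensin sums of the piceatannol libraries. There Pttg1 averaged 48.6 of 63.6 CPM, Incenp 68.0 of 97.6 CPM and Smc4 63.5 of 114 CPM. Medians of the fitted log2 changes by role lay between -1.54, for Aurka with Tpx2, and -3.18, for Mki67 with Top2a. The median of the anaphase genes was -2.70.

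**Figure D4:**
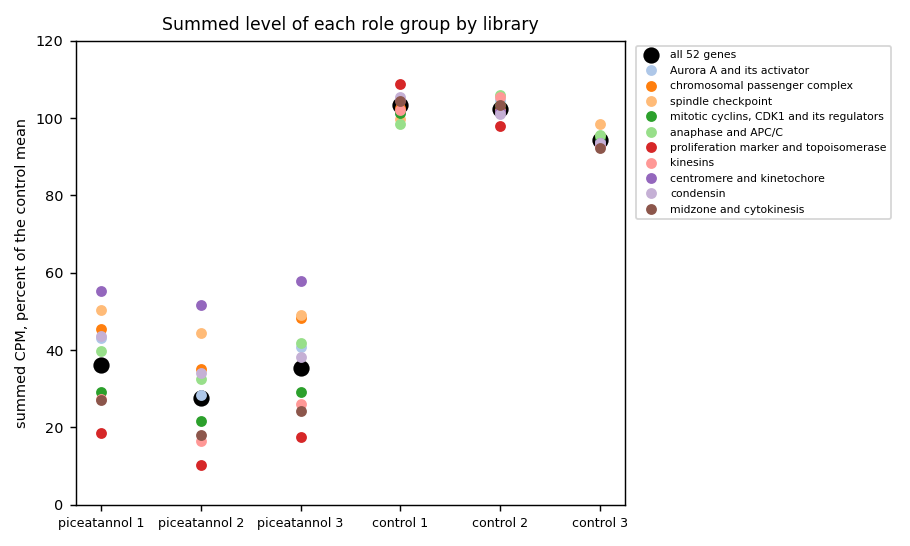
Summed CPM of each role group in every library, as percent of that group's control mean, with piceatannol libraries on the left and control libraries on the right. Black points are all 52 genes. Every role group was lower in all 3 piceatannol libraries, and piceatannol replicate 2 was the lowest for each.

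The order of levels per length was altered. In piceatannol libraries the highest of the 52 in FPKM were Pttg1 at 23.9 ± 1.39, Incenp at 20.8 ± 3.602, Cenpa at 15.9 ± 0.91, Smc4 at 11.99 ± 1.38 and Bub3 at 11.2 ± 0.13 (SD, n = 3). Pttg1 and Incenp overlapped, as did Smc4 and Bub3. In control libraries they were Ccnb2 at 33.5 ± 3.05, Incenp at 30.1 ± 1.07, Top2a at 23.7 ± 1.51, Ube2c at 22.1 ± 2.56 and Pttg1 at 20.4 ± 1.45 (SD, n = 3). There Ccnb2 and Incenp overlapped, and Top2a, Ube2c and Pttg1 each overlapped with the other two. Top2a had 0.977 ± 0.263 FPKM in piceatannol libraries. The 5 highest genes in piceatannol were thus the 2 that rose and 3 of the 4 that fell less than 2-fold. Across the 52 genes the control level and the size of the change were nearly uncorrelated (Pearson r = 0.07, Spearman rho = 0.04, log2 control FPKM against log2 fold change). These points are genes of the same libraries, not independent replicates.

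Other genes, from 7 lists of mitotic genes, their regulators and related genes such as kinesins that carry cargo, were more often lower than higher. They are called other mitotic genes here. Of 139 genes, 138 were in the table and 135 were tested. In piceatannol libraries 96 were lower, 25 higher and 14 not called, with a median log2 fold change of -0.59. Over all tested genes 38.3% were lower and 38.8% higher. Of the 25 higher genes, 6 were from the list of regulators. The other kinetochore genes were lower for 26 of 32 and higher for 5, with a median of -0.998. Kntc1, a subunit of the RZZ checkpoint complex, was 10.1-fold lower, at 2.29 ± 0.63 CPM in piceatannol and 23.6 ± 2.07 CPM in control libraries. Cenpm, of the inner kinetochore, was 6.56-fold lower. Zwint, a kinetochore protein that binds KNL1, was 3.42-fold higher, at 222 ± 10.4 CPM in piceatannol and 64.8 ± 1.70 CPM in control libraries (SD, n = 3 each). Spdl1, which recruits dynein to kinetochores, was 2.35-fold higher.

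Other spindle and kinesin genes were lower for 16 of 23 and higher for 5, against 38.3% and 38.8% of all tested genes. Nusap1, a microtubule-bundling spindle protein, was 8.63-fold lower and the midbody kinesin Kif14 7.32-fold lower. Kif3a and Kif13b, kinesins that carry cargo rather than build spindles, were 2.63-fold and 2.03-fold higher. Among other mitotic kinases, inhibitors and checkpoint genes, 19 of 22 were lower and 2 higher. Cdca5, which encodes sororin, a protector of cohesion, and the kinase gene Pbk were each 6.44-fold lower. Wee1, the kinase that inhibits CDK1, was 2.52-fold higher, at 26.7 ± 2.03 CPM in piceatannol and 10.6 ± 0.91 CPM in control libraries (SD, n = 3 each), and Ccnf, which encodes cyclin F, was 1.31-fold higher.

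For core subunits of APC/C, with which Cdc20 and Ube2c act, listed with Fzr1, Ube2s and Fbxo5, 8 of 17 genes were lower. Of the rest, 6 were higher and 3 not called, and the median of the 17 was -0.17. Fzr1, Ube2s and Fbxo5, which are not core subunits, were all among the lower genes. Over all tested genes 38.3% were lower and 38.8% higher, so these counts are near the background. Anapc13 and Anapc5 were 2.44-fold and 2.20-fold lower, while Anapc16 and Cdc27 were 1.39-fold and 1.96-fold higher. Cdc20 over Fzr1, the activator used from late mitosis into G1, was 0.352 ± 0.097 in piceatannol and 1.21 ± 0.10 in control libraries in FPKM (SD, n = 3 each).

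Cohesin with condensin II was lower for 11 of 14 genes and higher for 1, with a median of -0.47. The background was 38.3% lower and 38.8% higher among all tested genes. Esco2, the acetyltransferase that closes cohesin in S phase, was 9.71-fold lower and Ncapg2 2.52-fold lower. The log2 fold change of Nipbl, the cohesin loader, was 0.21 with overlapping groups, and its call was lost without control replicate 2 and without piceatannol replicate 1 (adjusted p = 0.0901 and 0.0579, edgeR). With the replicate number as a block, 2 genes of this list were higher. All 8 tested genes on the list of other cytokinesis genes were lower. That list repeats Kif14 from the spindle and kinesin list and includes Cyfip1, an actin regulator. Cit, the citron kinase, was 6.06-fold lower and Chmp1a and Sept7 each 1.21-fold lower.

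Of the regulators of mitotic genes, 9 of 20 were lower, 6 higher and 5 not called, also near the 38.3% and 38.8% of all tested genes. Mybl2, whose product B-MYB joins the MuvB core to switch on mitotic genes, was 5.66-fold lower. Rbl1, the p107 pocket protein, was 2.82-fold lower. Nfyb, a subunit of the factor that binds CCAAT boxes, was 2.36-fold higher. Cdkn1c, the CDK inhibitor p57, rose to 178 ± 22.4 CPM in piceatannol libraries, against 1.49 ± 0.28 CPM in control libraries (SD, n = 3 each), or 120-fold, while Cdkn1a, the inhibitor p21, did not pass the test (0.05 on the log2 scale, adjusted p = 0.483, edgeR). Cdkn1a was named after its values were seen.

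DNA replication genes, which act before mitosis, had a median close to that of the 52 genes. Of 25 genes, 23 were lower and 2 were not called, with a median of -2.03, while 38.3% of all tested genes were lower. Their summed CPM was 388, 338 and 399 in piceatannol libraries, and 1175, 1195 and 1094 in control libraries, a ratio of control to piceatannol of 3.08. Rrm2 and Tk1, which supply nucleotides, were 9.57-fold and 8.84-fold lower, while Gins4 was 1.22-fold lower and Gmnn fell by 0.26 on the log2 scale. As for the mitotic genes, piceatannol replicate 2 had the lowest sum.

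**Figure D5:**
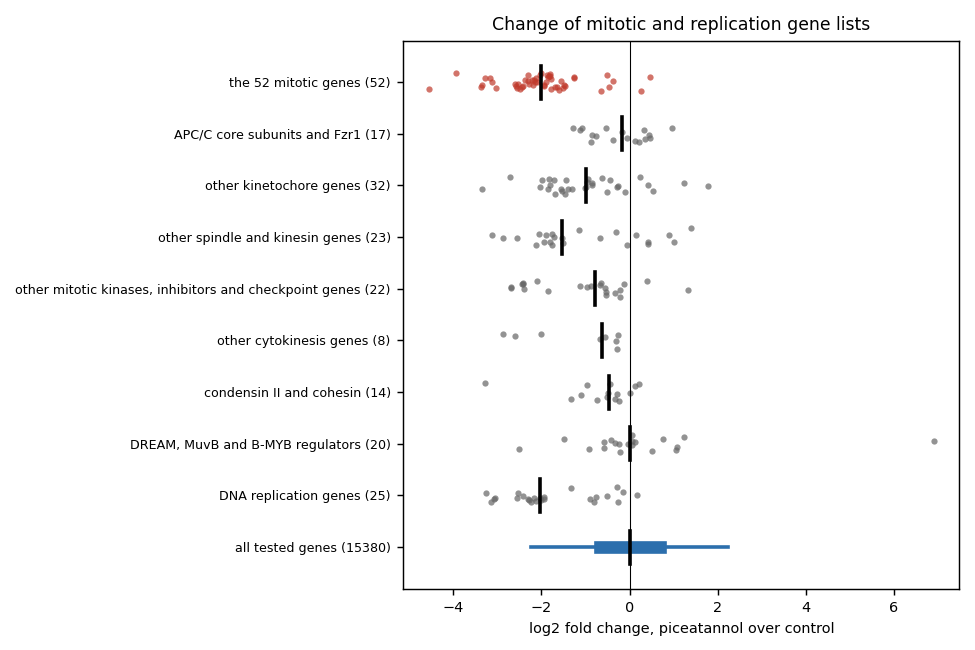
Log2 fold change of piceatannol over control for the 52 mitotic genes (red), 8 other lists (grey, number tested in brackets) and all tested genes, where the thick bar spans the quartiles and the thin bar the 5th to 95th percentile. Black ticks are medians, -2.02 for the 52 genes, -2.03 for DNA replication genes and -0.17 for the APC/C list. The isolated point at 6.91 is Cdkn1c.

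Markers of cell types differed between the groups as well, as did 77% of all tested genes, 38.3% being lower and 38.8% higher. The 12 macrophage markers summed to 13577 to 15073 CPM in piceatannol libraries and 21503 to 25593 CPM in control libraries. Most of this was Lyz2, which averaged 10224 CPM in piceatannol and 14876 CPM in control libraries and was 1.46-fold lower. Of the 12 markers 10 were lower and 2 higher, from 11.7-fold lower for C1qb to 3.80-fold higher for Cd14. Adgre1, which encodes F4/80, was 119, 108 and 106 CPM in piceatannol libraries, and 445, 404 and 465 CPM in control libraries, and Cd68 was higher in piceatannol by 1.11 on the log2 scale. The 7 progenitor markers summed to 111 to 120 CPM in piceatannol libraries and 111 to 129 CPM in control libraries, with 4 lower and 3 higher. Among them Cd34 was 1.14, 0.817 and 0.819 CPM in piceatannol libraries and 75.7, 70.0 and 62.1 CPM in control libraries, and Kit was higher in piceatannol by 1.79 on the log2 scale.

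The 6 fibroblast and endothelial markers summed to 501 to 564 CPM in piceatannol libraries and 2188 to 2432 CPM in control libraries, with 4 lower and 1 higher. Dendritic cell markers summed to 825 to 1028 CPM in piceatannol libraries and 1602 to 1732 CPM in control libraries, with 7 of 8 tested lower. Neutrophil markers summed to 585 to 621 CPM in piceatannol libraries and 524 to 634 CPM in control libraries, mostly Mmp8, and 7 of 8 tested were lower. Markers of T and NK, B and plasma, erythroid, and mast cells and basophils each summed to under 10 CPM in every library, and Ncr1, Gzma and Mcpt4 were at 0 throughout. These counts stand beside 38.3% lower and 38.8% higher among all tested genes. The part of these cell types in the change of the mitotic genes was not tested.

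Some members overlap other genes in the annotation. In the GENCODE M21 annotation 17 of the 52 genes share exon bases with another gene, and whether counting used strand is not given in the sources used here. Of these, the largest shares were 29.3% of the exon bases of Kif20a, with Cdc23, and 22.8% of those of Ube2c, with Tnnc2. Cdc23 averaged 20.5 CPM in piceatannol and 37.0 CPM in control libraries, and Tnnc2 averaged 0.395 CPM in piceatannol and 0.0523 CPM in control libraries. Some other partners were more abundant than the member in piceatannol libraries. Kif4 shares 15.1% with Pdzd11, at 30.7 CPM in piceatannol and 32.9 CPM in control libraries. Ncapg shares 13.4% with Lcorl (23.1 and 9.60 CPM) and Cenpk 4.45% with Ppwd1 (14.3 and 9.00 CPM). Ccna2 shares 12.5% with Exosc9 (25.4 and 39.0 CPM) and Cdc20 2.84% with Elovl1 (134 and 147 CPM). Their effect on the counts was not tested. The pseudogenes Ccnb1-ps and Ccnb2-ps had at most 6 and 3 counts in any library, and those of Kif22 and Kif4 had 0.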

How the data were processed

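RNA was sequenced from 3 piceatannol and 3 control samples. The authors deposited gene counts and FPKM values, which are scaled to gene length and library size. A TruSeq kit and 1 µg of RNA per sample were used, per the labels' protocols. bcl2fastq, STAR, featureCounts, DESeq2 and the builds mm10 and GRCm38 are named, without versions or settings, per the submitters' processing notes. The deposited counts were fitted over the whole table with edgeR 4.0.16 in R 4.3.3 (quasi-likelihood test, TMM factors, genes kept by filterByExpr with a minimum count of 10, two-sided, Benjamini-Hochberg adjustment, threshold 0.05). The test was checked on simulated data. CPM are TMM-scaled. The fit describes relative RNA shares, not RNA per cell. Alternatives included DESeq2 1.42.0, limma 3.58.1 (voom on counts, and log2(FPKM + 1) or log2(FPKM + 0.1), scales that understate the change of low genes), other scaling factors and filters, and leaving out each library.

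The 52 genes and all lists were chosen with earlier results of these data known. All 52 genes are named, and from each other list the 2 lowest and 2 highest log2 fold changes past the threshold. Gene positions come from GENCODE M21 (GRCm38), and promoters from RefSeq (GRCm38.p6). Within each group, chi-square tests showed that replicates differed beyond sampling noise. Deviations from the group means correlated weakly between same-numbered piceatannol and control samples (r = 0.115, 0.121 and 0.134 over genes, each above 0.1). Different numbers gave -0.120 to 0.00575, but deviations within a group cancel, so these values depend on the same-numbered ones. On this basis the numbers, taken from the labels, were treated as pairs in an added block. The labels do not say what a shared number means. Over the 52 genes, piceatannol replicate 2 and control replicate 3 were most often the lowest, and they share no number.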

Additional observations from a re-analysis of the deposited data

How the results depend on the processing

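All 52 genes kept their direction and their call under every scaling, filter, tool and left-out library tried that could test them, in 830 of 830 recomputed values. Cenpk and Kif18a could not be tested with the filter of 5 CPM in 3 libraries. The median log2 fold change of the 52 was -2.12 to -1.87 when single libraries were left out, and -1.44 with limma on log2(FPKM + 1), a scale that compresses low genes. With the replicate block the median was -2.02 and 50 genes were lower and 2 higher. Beside the count given for cohesin genes, the block changed no call of the 52 genes and no count of calls by over 1.5 times. A 2-fold minimum left 0 of the 52 genes higher, 49 other mitotic genes lower and 9 higher, and 2548 of all tested genes lower and 2686 higher. With upper-quartile factors 1 DNA replication gene was higher, and also 1 with the filter of 5 CPM. In the 300-base promoter window, added after seeing the data, 81.4% of the 43 genes held CHR letters, against 53.5% in the shorter window, and 67.4% held both elements, against 46.5%. The fewest counts over the piceatannol libraries were 101 for Cenpk, 150 for Kif18a, 162 for Spc24 and 202 for Ttk.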
